A study of Camelus dromedarius with 4 samples.

Results

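CD44, the hyaluronan synthase HAS2 and 8 genes of the brain's perineuronal matrix (ACAN, BCAN, NCAN, VCAN, HAPLN1, HAPLN4, TNC and TNR) are described here in the supraoptic nucleus of the dromedary camel in winter and in summer. These 10 genes were chosen from the season means themselves, with the seasonal difference of CD44 already known, out of 16049 gene symbols that had a mean. All 10 had a mean in both seasons. Their seasonal differences are therefore given as a description. Calls that a fit of all symbols made on members are counted once and support nothing, and intervals on members cover counting error only.

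Hyaluronan is a long sugar chain that hyaluronan synthases such as HAS2 extrude from the cell surface, and it forms the backbone of the extracellular matrix of the brain. Aggrecan (ACAN), brevican (BCAN), neurocan (NCAN) and versican (VCAN) are the lecticans, chondroitin sulfate proteoglycans that bind hyaluronan at one end. Link proteins (HAPLN1, HAPLN4) hold that bond, and tenascins (TNC, TNR) join lecticans to each other, so that dense perineuronal nets can wrap some neurones. CD44 is a cell surface receptor for hyaluronan, carried by astrocytes, activated microglia and leukocytes among others.

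The study compared the supraoptic nucleus, a hypothalamic nucleus of magnocellular neurones that make vasopressin and oxytocin, between winter and summer by RNAseq of stranded, rRNA-depleted total RNA. The animals were healthy adult male dromedaries of the Tergui breed, killed for meat at El Oued (Algeria) in winter and at Ouargla (Algeria) in summer, so that season and place cannot be told apart. There were 2 libraries from 2 camels per season, by the study's own count of animals, and no treatment in either season.

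Between 4379162 and 6902037 reads per library lay on gene models. The deposited table gives each gene symbol as a mean of normalized counts per season, and whole reads of both libraries were recovered from that mean where a single pair of whole numbers gives it. Libraries are named by the size factor that the recovery gives, 1.33 (larger) and 0.946 (smaller) in winter, 0.922 (larger) and 0.877 (smaller) in summer. The recovery does not name the replicate. Normalized counts below are reads divided by the size factor. The labelled tissue was checked against markers of magnocellular neurones. OXT, which encodes the oxytocin precursor and may share reads with the vasopressin gene, had season means of 621 in winter and 592 in summer. SIM1, a transcription factor of these neurones, had 38.6 and 56.3. By library, SIM1 had 63.4 and 13.7 in the larger and smaller winter libraries, so the winter pieces were not alike in it. In the larger and smaller summer libraries it had 48.8 and 63.8. The vasopressin gene is listed only as putative and is not used here.

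Of the 10 members, 7 had a higher mean in summer and 3 (BCAN, TNC and TNR) in winter. HAPLN1 and HAPLN4 were among the 7, and both turned to a higher winter value when reads were scaled to library sums instead. Those sums are of the recovered reads of symbols averaging at most 50 over both seasons, not of whole libraries, since high means have no single solution. They ran from 79710 reads in the larger to 123235 in the smaller summer library. The median log2 ratio of the members, winter over summer, was -0.17, beside -0.037 over the 13805 symbols averaging 10 or more in a season and above 0 in both. CD44 was the 1 member whose season means lay more than 2-fold apart. Of all 13808 symbols averaging 10 or more in a season, 7.26% did so. ACAN and NCAN were under 10 in both seasons, so 8 members passed that filter.

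**Figure D1:**
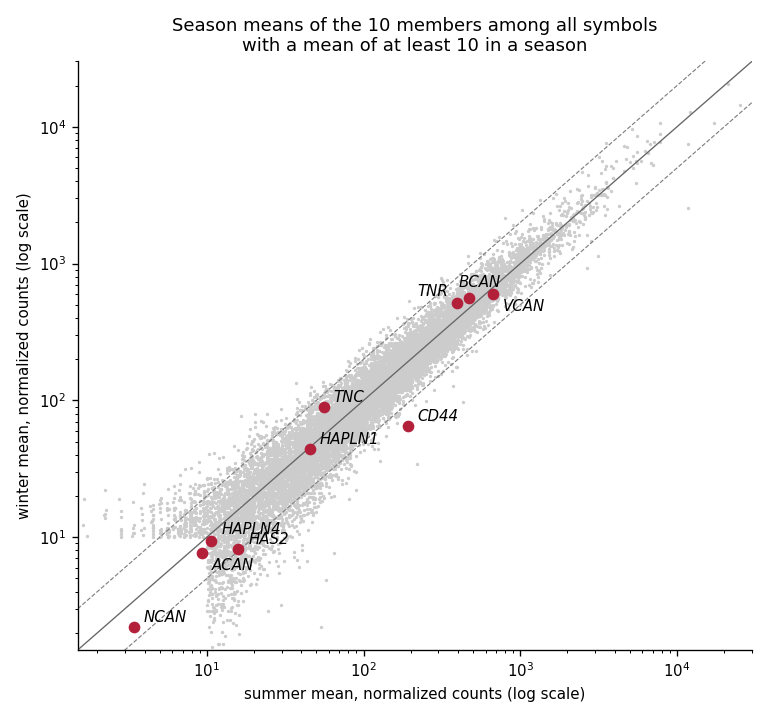
Winter mean against summer mean of normalized counts, both on log scales, for all symbols averaging 10 or more in a season and above 0 in both (grey; the few outside the plotted range are not drawn) and for the 10 members (red). The solid line marks equal means and the dashed lines a 2-fold difference. CD44 (191 in summer, 64.5 in winter) lies beyond the lower dashed line, and the other members lie between the dashed lines.

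A single solution in whole reads was found for 7 members: CD44, ACAN, NCAN, HAPLN1, HAPLN4, TNC and HAS2. Averaging 10 or more, CD44, HAPLN1, HAPLN4, TNC and HAS2 entered the edgeR quasi-likelihood fit of 7565 symbols. Of these symbols 129 (1.71%) passed the thresholds of the study, an unadjusted p under 0.05 with season levels over 2-fold apart, and 64 (0.846%) did so with the higher level in summer. None (0%) had an adjusted p under 0.05 in edgeR's quasi-likelihood test, beside 156 with an unadjusted p under 0.05. The same quasi-likelihood test on reads scaled to these sums, edgeR's exact test and DESeq2 each gave 1. Of the 5 members in the fit, 1 (CD44) passed the thresholds, and 0 had an adjusted p under 0.05. Since the season means chose the members, nothing is read from that count.

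CD44, the hyaluronan receptor, was counted with 133 reads in the larger summer library and 208 in the smaller, against 94 in the larger winter library and 55 in the smaller. As normalized counts these were 144 and 237 in summer, and 70.9 and 58.2 in winter. Both summer libraries lay above both winter libraries, and the libraries of a season did not overlap with those of the other. The season means were 191 ± 65.7 in summer and 64.5 ± 9.03 in winter (SD, n = 2 each), a 2.95-fold higher level in summer compared to winter. Among the symbols averaging 10 or more, 1.37% had a lower ratio of winter over summer than CD44.

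The 2 summer libraries differed in CD44 more than the 2 winter libraries did, by 0.72 against 0.29 on the log2 scale. Scaling the reads to the sums over low-mean symbols gave 179 and 181 in summer, and 69.1 and 62.8 in winter, so that the spread between the summer libraries depended on the scaling while the seasons stayed apart. The log2 ratio of winter over summer was -1.56, and it ranged from -1.88 to -1.16 when any 1 library was omitted. In counting error alone, the ratio of winter over summer reads was 0.346 (95% exact binomial interval 0.284 to 0.421), which leaves out the spread between libraries. Both summer libraries stood above both winter libraries in 17.3% of the 7565 symbols in the fit. CD44 was the 1 member of 5 in the fit with this order.

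In bulk tissue, fewer cells of a type and less RNA per cell cannot be told apart, and markers of the cells that can carry CD44 were read beside it. Of the blood leukocyte markers, all 4 averaging 10 or more were higher in summer, as were 6 of all 7 with a mean. CD2 and S100A8, named after their values were seen, reached 10 only in summer, the season in which they were high. Their season means were 14.8 and 10.6 in summer, and 3.47 and 4.38 in winter. For CD2 and S100A8 the filter therefore set the direction. CD2 had 0 and 26 reads in the larger and smaller summer libraries. The summed level of all 7 leukocyte markers with a mean was 65.6 and 77.2 in winter against 182 and 150 in summer, library by library, which did not overlap. CD3E, a chain of the T cell receptor complex, had normalized counts of 36.2 and 34.9 in winter and 66.1 and 65.0 in summer. CD3D, another chain of this complex, was the marker that went the other way. Its winter values of 3.77 and 4.23 lay above its summer values of 2.17 and 3.42. No library held more than 5 reads of CD3D.

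Perivascular macrophage markers summed to 474 in summer and 246 in winter, and 3 of 4 were higher in summer. The 3 solved ones summed to 80.0 and 110 in winter, within the range of 79.2 and 272 in summer. MRC1, the mannose receptor of these cells, had 14.1 and 229 in the summer libraries, on either side of the 48.3 and 82.5 in winter. CD163, the haemoglobin scavenger receptor, had season means of 298 in summer and 151 in winter. Microglial markers summed to 7338 in summer and 5323 in winter, with 5 of 7 higher in summer. The 3 solved microglial markers, AIF1, CSF1R and TMEM119, went the other way in their sum, with 289 and 298 in winter and 281 and 184 in summer. CSF1R, the receptor that microglia need to survive, had 120 and 92.0 in winter and 77.0 and 35.3 in summer, and TMEM119 also had winter above summer in every library. All 3 were named after their values were seen. The complement genes C1QB (3476 against 2278) and C1QC (1778 against 1230) carried most of the sum of season means. Astrocyte markers summed to 39996 in summer and 25190 in winter, with 4 of 8 higher in summer, and GFAP, the astrocytic filament protein, made up 25074 and 14423 of these sums. S100B, a calcium-binding protein of astrocytes, had 11788 and 7490. No marker with a mean in these 4 lists was at 0 in both libraries of a season. The part of these cells in the difference of CD44 was not tested.

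**Figure D2:**
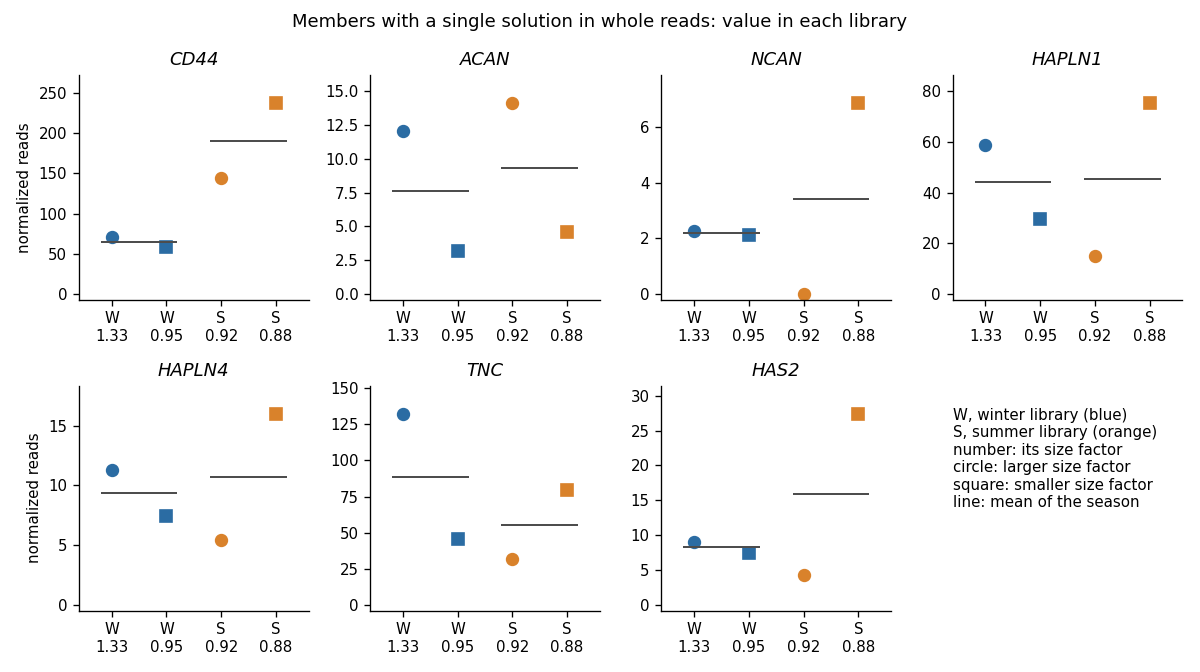
Normalized counts of the 7 members with a single solution in each winter (W, blue) and summer (S, orange) library, one panel per gene with its own axis from 0, with lines at the season means. The summer points of CD44 (144 and 237) lie above both winter points (70.9 and 58.2). In the other 6 panels the seasons overlap.

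HAS2, which makes long-chain hyaluronan, had 4 and 24 reads in the larger and smaller summer library, and 12 and 7 in the larger and smaller winter library. As normalized counts these were 4.34 and 27.4 in summer, on either side of the 9.06 and 7.40 in winter. The log2 ratio of the means was -0.95, and it turned to 0.92 without the smaller summer library. A single library therefore set the direction of HAS2. The 2 other synthases, HAS1 and HAS3, which were named after their values were seen, were higher in winter by mean (18.0 against 7.98, and 29.4 against 25.7). HAS1 had 0 and 14 reads in summer, in the same 2 libraries in which HAS2 was low and high.

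The lecticans are considered next. BCAN, the brain-specific lectican, had season means of 556 in winter and 471 in summer, a log2 ratio of 0.24. Its summer libraries were solved at 371 and 473 reads, or 402 and 539 normalized counts. In winter 4 pairs of whole reads give the same mean, with values by library between 275 and 837. In 1 of these 4 pairs (558 and 554) winter was above summer in every library, and in 3 the seasons overlapped.

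VCAN, the lectican that is also made widely outside the brain, had means of 600 in winter and 668 in summer, a log2 ratio of -0.15. There were 4 solutions in winter and 2 in summer, and the seasons overlapped in all 8 combinations. The larger and smaller summer libraries had 845 and 491 normalized counts by 1 summer solution, and 287 and 1049 by the other. Which summer library was higher in VCAN is thus not known.

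ACAN, the principal proteoglycan of perineuronal nets, was counted with few reads. It had 16 and 3 reads in the larger and smaller winter libraries and 13 and 4 in the larger and smaller summer libraries. In normalized counts these were 12.1 and 3.17 in winter, and 14.1 and 4.56 in summer, so that the gap between libraries of a season was several times the difference of the means (7.62 and 9.33). It was the 1 member higher in the larger summer library among the 7 with a single solution. NCAN, a lectican typical of the developing brain, was counted with 3 and 2 winter reads against 0 and 6 in summer. Its means were 2.19 and 3.42, and 0 reads in the larger summer library allow up to 3.25 normalized counts in counting error. The ratio of winter over summer reads of NCAN was 0.660 (95% exact binomial interval 0.159 to 2.60), so this depth gave no direction.

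Of the link proteins, HAPLN1 had nearly equal season means, 44.2 in winter and 45.2 in summer. Its reads were 78 and 28 in the larger and smaller winter libraries and 14 and 66 in the larger and smaller summer libraries, or 58.9 and 29.6, and 15.2 and 75.2, normalized counts. The lowest and the highest value were both in summer. Without the smaller summer library the log2 ratio moved from -0.031 to 1.54, and without the larger one to -0.77. HAPLN4, the link protein of inhibitory synapses and nets, was counted with 15 and 7 winter reads against 5 and 14 in summer, in the same order of libraries. Its normalized counts were 11.3, 7.40, 5.42 and 16.0, again with the lowest and the highest value in summer.

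TNC, the tenascin of developing and reactive tissue, had 175 and 43 reads in the larger and smaller winter libraries and 29 and 70 in the larger and smaller summer libraries. In normalized counts these were 132 and 45.5 in winter, and 31.4 and 79.8 in summer, with means of 88.8 ± 61.2 and 55.6 ± 34.2 (SD, n = 2 each). The seasons overlapped. The higher winter mean came from the larger winter library, without which the log2 ratio turned from 0.67 to -0.29. TNR, the tenascin of oligodendrocytes and nets, had means of 517 in winter and 395 in summer, a log2 ratio of 0.39. Its summer libraries had 409 and 304 reads, or 444 and 347 normalized counts. In winter 4 solutions between 301 and 732 remained, and in 1 of these 4 (453 and 581) winter was above summer in every library.

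Across the members, the spread between libraries of a season was as prominent as the seasons. In the larger winter library, 7 of the 7 members with a single solution were higher than in the other winter library. Of the 5 in the fit, 5 were so, where 53.5% of the 7565 symbols were. In the smaller summer library 6 of the 7, all but ACAN, were higher than in the larger. Of the 5 in the fit, 5 were so, where 61.9% of symbols were. The summer libraries lay more than 2-fold apart in 4 of the 5 (HAPLN1, HAPLN4, TNC and HAS2), beside 33.9% of symbols. That count depended on the scaling. With reads scaled to the sums over low-mean symbols, the larger and smaller summer libraries had 6.74 and 12.2 for HAPLN4. TNC had 39.1 and 61.0, so both genes lay within 2-fold. HAPLN1 (18.9 and 57.5) and HAS2 (5.39 and 20.9) stayed beyond it. The winter libraries did so in 1 of the 5 (TNC), beside 15.9%. Leaving out 1 library changed the sign of the season ratio in 5 of the 7 members with a single solution (ACAN, HAPLN1, HAPLN4, TNC and HAS2), but not in CD44 or, where a ratio could be formed, in NCAN.

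The astrocyte markers with a single solution were AQP4, ALDH1L1 and SLC1A3, which were named after their values were seen. ALDH1L1, a folate enzyme of astrocytes, had 212 and 76.1 in the larger and smaller winter libraries, and 70.5 and 168 in the larger and smaller summer libraries, the same order of libraries as TNC. SLC1A3, a glutamate transporter, had 115 and 77.2 in winter and 56.4 and 119 in summer, with the smaller summer library highest. AQP4, the water channel of astrocyte endfeet, had 6.79 and 3.17 in winter and 9.76 and 10.3 in summer, with both summer libraries above winter. Within each season all 3 markers were higher in the larger winter and in the smaller summer library, as were the members in the fit. Only their order across the seasons differed. In SLC1A3 that rested on the close values of 119 and 115. AQP4 had no more than 9 reads in any library. Both summer libraries held 9 reads of it, so its order in summer came from the size factors alone. GFAP and S100B, the most abundant astrocyte markers, had no single solution. The 3 solved magnocellular markers summed to 187 and 79.3 in winter, and 120 and 162 in summer. The part of the makeup of the tissue pieces in these gaps was not tested.

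Ratios between members within a library do not depend on the size factors. They are compared between libraries only, as no transcript lengths were used. TNC over CD44 had log2 ratios of 0.90 and -0.36 in the larger and smaller winter libraries, and -2.20 and -1.57 in the larger and smaller summer libraries. HAPLN1 over CD44 had -0.27 and -0.97 in winter, and -3.25 and -1.66 in summer. Both ratios were higher in both winter libraries than in either summer library, and both contain CD44. HAS2 over CD44 had -2.97 in each winter library, and -5.06 and -3.12 in summer, where the smaller summer library came close to winter. HAPLN1 over TNC, which leaves CD44 out, had -1.17 and -0.62 in winter, and -1.05 and -0.085 in summer, and overlapped. Over the 4 libraries the SD of the log2 ratio was 0.49 for HAPLN1 over TNC, 1.37 for TNC over CD44 and 1.27 for HAPLN1 over CD44. These SDs pool the seasons, so the ratios over CD44 include its seasonal difference. Within winter and within summer (n = 2 each), the SD was 0.39 and 0.68 for HAPLN1 over TNC. It was 0.89 and 0.44 for TNC over CD44, and 0.50 and 1.13 for HAPLN1 over CD44.

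**Figure D3:**
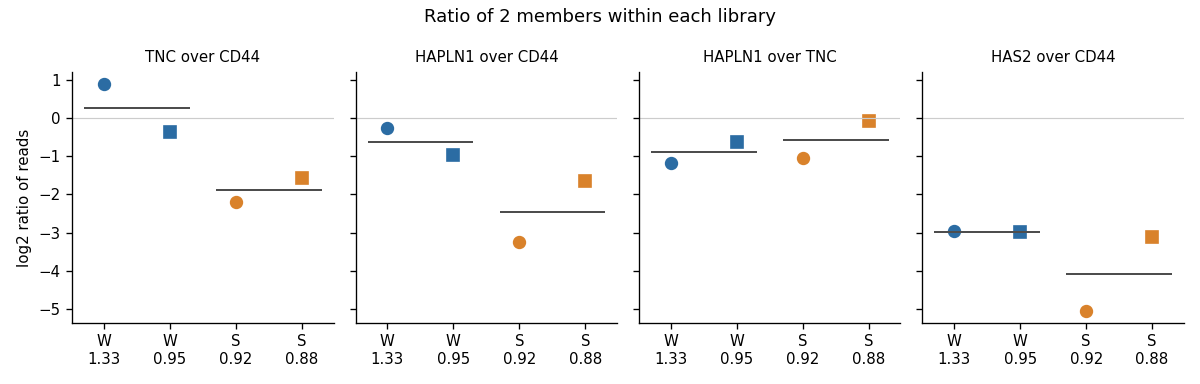
Log2 ratio of the reads of 2 members within each winter (W, blue) and summer (S, orange) library, named by size factor, with lines at the season means. In the 3 ratios over CD44 the winter points lie above the summer points, and in HAPLN1 over TNC (from -1.17 to -0.085) they overlap.

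Each lectican gene lies next to a link protein gene. In the RefSeq annotation of the dromedary (mCamDro1.pat assembly, not the one the reads were aligned to), all 10 members were matched by symbol, and no protein-coding gene lay between VCAN and HAPLN1, NCAN and HAPLN4, BCAN and HAPLN2, or ACAN and HAPLN3. Neighbours had the same sign of log2 ratio in each pair, with -0.15 and -0.031 for VCAN and HAPLN1, and -0.64 and -0.19 for NCAN and HAPLN4. HAPLN2 and HAPLN3, which are no members and were named for their position, had 0.62 beside 0.24 for BCAN, and -0.60 beside -0.29 for ACAN. For the members with low counts these signs rest on few reads, and HAPLN1 and HAPLN4 turned to 0.23 and 0.0064 with reads scaled to the sums over low-mean symbols. Whether the counting used strand is not given in the sources used here, so reads of overlapping neighbours cannot be set apart.

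The genes of the same pathways were read from 5 lists, which hold 89 gene symbols with a mean beside the members. Of these 78 averaged 10 or more in a season, and 37 were in the fit. A single one, CHST13, passed the thresholds of the study with a higher level in winter, 0 did so with a higher level in summer, and 0 had an adjusted p under 0.05, beside the 1.71% and 0% of all symbols. CHST13, a sulfotransferase that adds sulfate to chondroitin chains, was counted with 18 and 11 winter reads against 1 and 1 in summer. Its means were 12.6 in winter and 1.11 in summer, so it entered the fit only through the season in which it was high. Nothing is therefore read from its call. The ratio of winter over summer in counting error alone was 11.5 (95% exact binomial interval 2.91 to 99.4). With DESeq2 CHST13 did not pass the thresholds. The unadjusted p of CHST13 was 0.012, and after adjustment 0.980, in edgeR's quasi-likelihood test. Both summer libraries lay above both winter libraries in 5 genes of the lists (STAB1, LAYN, PTX3, PAPSS2 and MMP14), and both winter above both summer in 7 (CHST13, KIAA1199, ITIH3, ITIH4, CHSY1, ADAMTS8 and TIMP1), all but CHST13 named after their values were seen. Over all symbols in the fit these orders had shares of 17.3% and 13.4%.

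Genes of hyaluronan synthesis, turnover and receptors were divided evenly, with 9 of 18 higher in each season and a median log2 ratio of -0.065. The inter-alpha-trypsin inhibitor chain ITIH5, of the family whose heavy chains attach to hyaluronan, had 698 in winter and 541 in summer. TMEM2, a hyaluronidase of the cell surface, had 302 and 417, and UGP2, which makes the UDP-glucose from which the hyaluronan precursor derives, had 295 and 339. In 3 genes of this list winter was above summer in every library (KIAA1199, ITIH3 and ITIH4), and in 3 the order was the opposite. ITIH3, an inter-alpha-inhibitor heavy chain, had 92.1 and 123 in winter and 82.4 and 63.8 in summer. STAB1, a scavenger receptor for hyaluronan of macrophages and endothelium, had 20.4 and 14.8 in winter and 29.3 and 52.4 in summer. LAYN, a membrane receptor for hyaluronan, had 9.81 and 13.7 in winter and 19.5 and 35.3 in summer. PTX3, a soluble protein that cross-links hyaluronan with its inter-alpha-inhibitor chains, had 3.77 and 4.23 in winter and 15.2 and 5.70 in summer. STAB1, LAYN and PTX3 each missed the thresholds, with unadjusted p of 0.093, 0.13 and 0.20 in edgeR's quasi-likelihood test.

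In the list of other matrix proteins and receptors of the perineuronal net, 9 of 12 genes had a higher mean in winter, and the median log2 ratio was 0.17. PTPRZ1, a receptor phosphatase whose secreted form is itself a proteoglycan, had 1333 in winter and 1346 in summer. PTPRS, a neuronal receptor for chondroitin sulfate, had 1544 and 1052, and CNTN1, an adhesion protein that binds TNR, had 1019 and 1006. With 2 of these genes in the fit, the list was hardly covered by values per library.

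The enzymes of chondroitin sulfate synthesis, whose chains the lecticans carry, had a median log2 ratio of 0.096, with 13 of 19 higher in winter. XYLT1, which starts the chain, had 934 in winter and 1002 in summer. UST, a uronyl sulfotransferase, had 413 and 546, and PAPSS1, which makes the sulfate donor, had 407 and 394. Proteases of lecticans and CD44 with their inhibitors had a median of 0.12, with 9 of 16 higher in winter. TIMP3, an inhibitor of matrix proteases, had 938 in winter and 1251 in summer. ADAM10, a sheddase of CD44, had 499 and 673. Partners of CD44 in the membrane and cytoplasm had a median of 0.032, with 8 of 13 higher in winter. ANK3, an ankyrin of the spectrin skeleton, had 7478 in winter and 6744 in summer. RDX, which ties CD44 to actin, had 2341 and 1972, and the CD44 ligand SPP1 had 1142 and 1120.

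**Figure D4:**
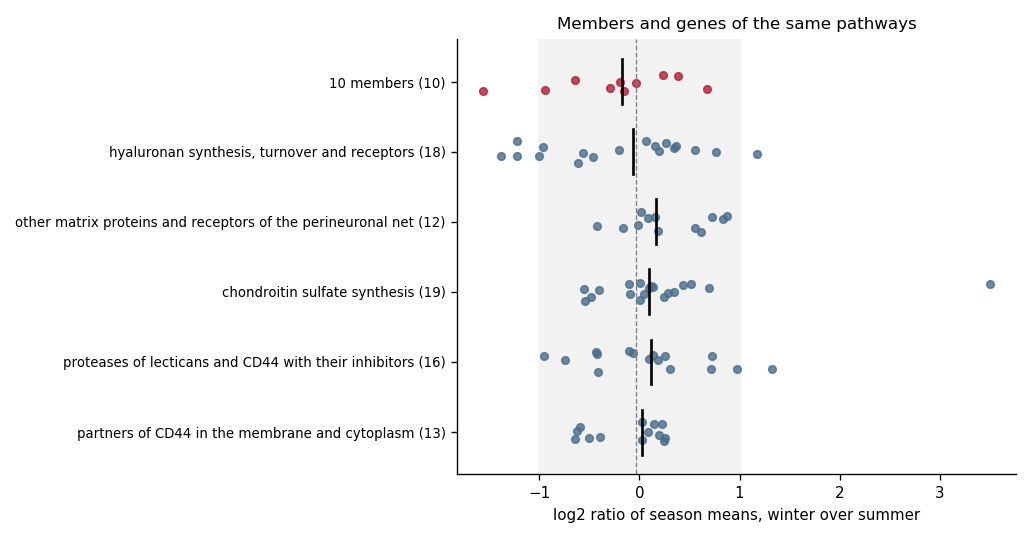
Log2 ratio of season means, winter over summer, for the 10 members (red) and for the genes averaging 10 or more in a season in each of 5 pathway lists (blue; number of genes in brackets). Black bars mark medians, the dashed line the median of all symbols (-0.037) and the grey band a difference of less than 2-fold. CD44 is the leftmost red point at -1.56, and CHST13 is the rightmost blue point at 3.50.

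Markers of the other cell types of the tissue gave the setting for these values. Oligodendrocyte precursor markers, which belong to cells known to make several lecticans, summed to 978 in summer and 1903 in winter. That gap was carried by genes of the whole oligodendrocyte lineage. PDGFRA, the precursor-specific receptor, named after its values were seen, had 130 and 72.9 in summer, on either side of the 90.6 and 89.9 in winter. SOX10, a transcription factor of the oligodendrocyte lineage, had 683 and 1490, and OLIG1, of the same lineage, had 115 and 222. Oligodendrocyte markers, of the cells that make TNR, summed to 33482 in summer and 37187 in winter, with 5 of 6 higher in winter. MBP, a protein of myelin, had 4571 in summer and 7277 in winter. BCAN and TNR also had higher means in winter, and the part of these cells in that was not tested.

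Neuronal markers summed to 773 in summer and 933 in winter, with 5 of 6 higher in winter. The glutamate transporter gene SLC17A6 had 201 and 213, and GAD1, an enzyme of GABA synthesis, had 235 and 178. Magnocellular markers, with sums of 733 and 754, were split with 2 of 4 higher in each season. Endothelial markers summed to 800 in summer and 843 in winter, with VWF at 367 and 444 and FLT1 at 244 and 225. Fibroblast markers summed to 491 and 479, with PDGFRB at 156 and 217 and COL3A1 at 112 and 95.6. COL1A2, a collagen chain named after its values were seen, passed the thresholds of the study with 115 and 88.9 in the summer libraries against 42.3 and 59.2 in winter. Ependymal and choroid plexus markers were near the bottom of the range, with sums of 22.5 and 23.6, of which AQP1 had 10.1 and 15.0 and CCDC153 5.62 and 6.72.

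**Figure D5:**
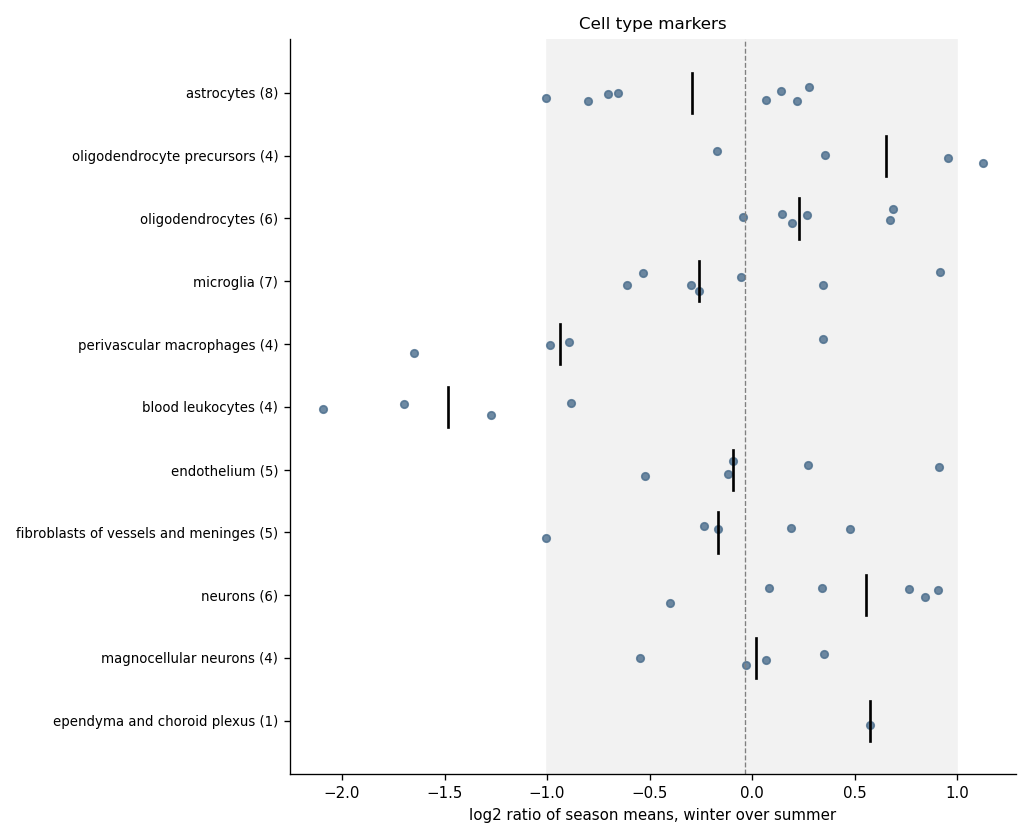
Log2 ratio of season means, winter over summer, for the markers of 11 cell types averaging 10 or more in a season (number of genes in brackets), drawn as in the plot of pathway lists. All 4 blood leukocyte markers lie at or below -0.88, and 3 of 4 oligodendrocyte precursor markers lie above 0. Of these leukocyte markers, CD2 and S100A8 reached 10 only in summer, the season in which they were high.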

How the data were processed

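RNAseq of the supraoptic nucleus was analysed in 2 winter and 2 summer libraries, grouped by season from the labels. The authors aligned reads with TopHat to their own dromedary assembly and counted them with HTSeq. Versions are not given in the sources used here. The deposited count files hold raw counts for 64989 gene models without symbols. Their last 5 lines, HTSeq tallies holding 72.2% to 79.3% of tallied alignments, were left out. The deposited table holds, per symbol, a signal for each season (normalized counts averaged over its libraries, with DESeq size factors) and the authors' edgeR fold changes and p-values, which were not used.

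Of 18152 rows in the table, 2099 had no mean and 4 with a repeated symbol were left out. Whole reads were recovered from the step that a single read adds to the mean in either library, as pairs of whole numbers that give the mean to within 1.2 times its rounding error at 6 significant digits. All 16049 symbols came out whole, and 9806 had a single solution. Of low means 100% were whole in both seasons, against 0.214% (summer) and 0.362% (winter) after a shift. Single solutions are rarer at high means, and rarer in winter. The design had the count test run on these reads, and 7565 symbols with a single solution and at least 10 normalized counts on average in winter or summer were fitted with edgeR 4.0.16 in R 4.3.3 (quasi-likelihood, recovered size factors) with Benjamini-Hochberg adjustment. The common biological coefficient of variation was 0.461. DESeq2 1.42.0, edgeR's exact test, other scalings (TMM, RLE and the summed recovered reads of symbols averaging at most 50), filters and the omission of each library were alternatives. Intervals of 95% are exact binomial and, like the limit of 3 reads for a count of 0, cover counting error only.

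The members and lists were chosen with earlier results of these data known. Named were all members, pathway genes past the thresholds, the 3 pathway genes and 2 markers with the highest means per list, and others where stated. The values of some of these are not reported here. LYVE1 and DCN are each in a pathway list and a marker list. Scripts were tested on simulated data. Figures were drawn with matplotlib 3.10.9.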

Additional observations from a re-analysis of the deposited data

How the results depend on the processing

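No paired analysis was possible because the camels of each season were different animals. The 1 replicate number that the seasons share does not mark a pair. The 129 symbols past the thresholds became 67 among 4004 symbols with low means (fewer genes tested) and 60 with DESeq2, which also took the 1 pathway gene called, CHST13, to 0. The count past an adjusted p of 0.05 rose from 0 to 1 with reads scaled to their sum over low-mean symbols, edgeR's exact test and DESeq2. With 1 library left out, the lone library of that season is assumed to vary like the others. The symbols past the thresholds then ranged from 35 (without the larger winter library) and 52 (without the smaller) to 1081 (without the larger summer library) and 1110 (without the smaller), pathway genes past them from 1 to 9, and symbols past an adjusted p of 0.05 from 0 to 207. The share of calls higher in winter, 50.4% with all libraries, ranged from 14.1% without the larger summer library to 82.2% without the smaller, where the median of all symbols also shifted by 0.27 on the log2 scale. For these changes the cause was not tested. HAS2 moved from -0.95 to 0.92 without the smaller summer library. CD44 stayed higher in summer in every alternative run on it, with log2 ratios of winter over summer from -1.88 to -1.16. The median of the hyaluronan list changed sign, from -0.065 to 0.054, with no filter on low values. BCAN, VCAN and TNR have no single solution, so neither that scaling nor the omission of a library could be run for them. The 2 libraries per season limit every comparison, and members under 20 reads per library (ACAN, NCAN, HAPLN4) are limited by counting as well.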
